A study of Bos taurus with 6 samples.

Results

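The nuclear genes of mitochondrial complex I were examined in pooled bovine primordial follicles (PMF) before and after culture. All gene symbols made of NDUF, a letter A, B, C, S or V and a number were taken, which gave 37 of the 23704 genes in the files. The follicles, each an oocyte inside a layer of pre-granulosa cells, were isolated from ovaries of Holstein Friesian dairy cows of 12 to 24 months. T0 is 3 pools collected after isolation, and T16 is 3 pools retrieved after 16 h of culture. T0 is taken here to be the PMF group of the study. The study's methods place that group after a recovery of 1 h in a medium holding insulin and FSH. The sample titles name no genotype or drug, and the medium of the 16 h culture is not given in the sources used here. Each library holds RNA of whole follicles, so oocyte and pre-granulosa cell transcripts are mixed, and in such bulk samples fewer cells of a type and less RNA per cell cannot be told apart. Whether each pool came from a different animal is not given in the sources used here, so p-values measure only the spread between these pools.

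Complex I is the NADH dehydrogenase of the mitochondrial inner membrane. It takes electrons from NADH, passes them through a flavin and a chain of iron-sulfur clusters to ubiquinone in its matrix arm, and pumps protons through its membrane arm. The mitochondrial genome encodes the proton-pumping core of the membrane arm, which was not analysed here, and the nucleus encodes the core of the matrix arm and all accessory subunits. Oocytes carry the mitochondria that pass to the embryo. Low complex I activity is a known trait of the earliest oocytes of other vertebrates.

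The total of estimated counts per library ranged from 22174653 to 36703016. All 37 genes passed the count filter (at least 10 counts in at least 3 libraries), with 239 to 10631 counts per gene and library. Markers of both follicle compartments were present, and their amounts differed between libraries of the same group. TPM is a transcript level scaled for transcript length and library size. The summed TPM of 16 oocyte markers was 615, 2492 and 3551 in T0 replicates 1, 2 and 3 and 2324, 99.2 and 899.9 in T16 replicates 1, 2 and 3, with every marker above 0 in every library. T16 replicate 2 and T0 replicate 1 were the lowest libraries for these markers. The sum of 12 granulosa cell markers ranged from 702 to 1660 TPM at T0 and from 247 to 1077 TPM at T16, and FSHR was at 0 in T16 replicate 3. Markers of other ovarian cells were also present, at 274 to 2443 TPM for 8 stromal genes, 23.4 to 434 TPM for 6 smooth muscle genes, 4.89 to 18.0 TPM for 6 endothelial genes and 2.74 to 52.9 TPM for 6 leukocyte genes. At least 1 library was at 0 for 2 of the stromal genes (TCF21 and OGN), 3 of the smooth muscle genes (ACTA2, MYH11 and RGS5), 4 of the endothelial genes (all but VWF and TEK) and 5 of the leukocyte genes (all but CSF1R). Of the leukocyte genes, PTPRC, CD14, AIF1 and CD3E did not exceed 1.4 TPM, while CSF1R reached 42.4 TPM and CD68 14.2 TPM. CSF1R was lowest of each group in T0 replicate 1 and T16 replicate 2, as the summed oocyte markers were.

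The complex I genes were among the more abundant transcripts of the follicles. Their median level over the 6 libraries was 281 TPM, against 14.4 TPM over the 14639 genes tested, and the lowest of them, NDUFS1, stood above 81.1% of the tested genes. In every library 29 of the 37 exceeded 100 TPM, and the lowest single value was 34.8 TPM, of NDUFA8 in T0 replicate 1. Together they made up 1.17%, 1.37% and 1.47% of the TPM of all named genes in T0 replicates 1, 2 and 3 and 0.976%, 1.07% and 1.58% in the T16 replicates.

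The highest levels belonged to small membrane subunits. NDUFC1, a short protein of the proximal membrane arm, had 551, 788 and 1361 TPM in T0 replicates 1, 2 and 3 and 904, 493 and 969.7 TPM in T16 replicates 1, 2 and 3. NDUFA4, which is named after complex I but is now known as a subunit of complex IV, had 689, 735 and 776 TPM at T0 and 472, 487 and 934 TPM at T16. NDUFB1, the member with the shortest main transcript (260 bases), had 568, 639 and 686 TPM at T0 and 500.4, 524 and 869.6 TPM at T16. The ranges of these 3 genes overlapped, so their order is not larger than the spread between libraries. The lowest were NDUFS1, NDUFV3 and NDUFA8, whose ranges also overlapped, and no library of these 3 reached the lowest library of the 3 highest genes.

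**Figure D1:**
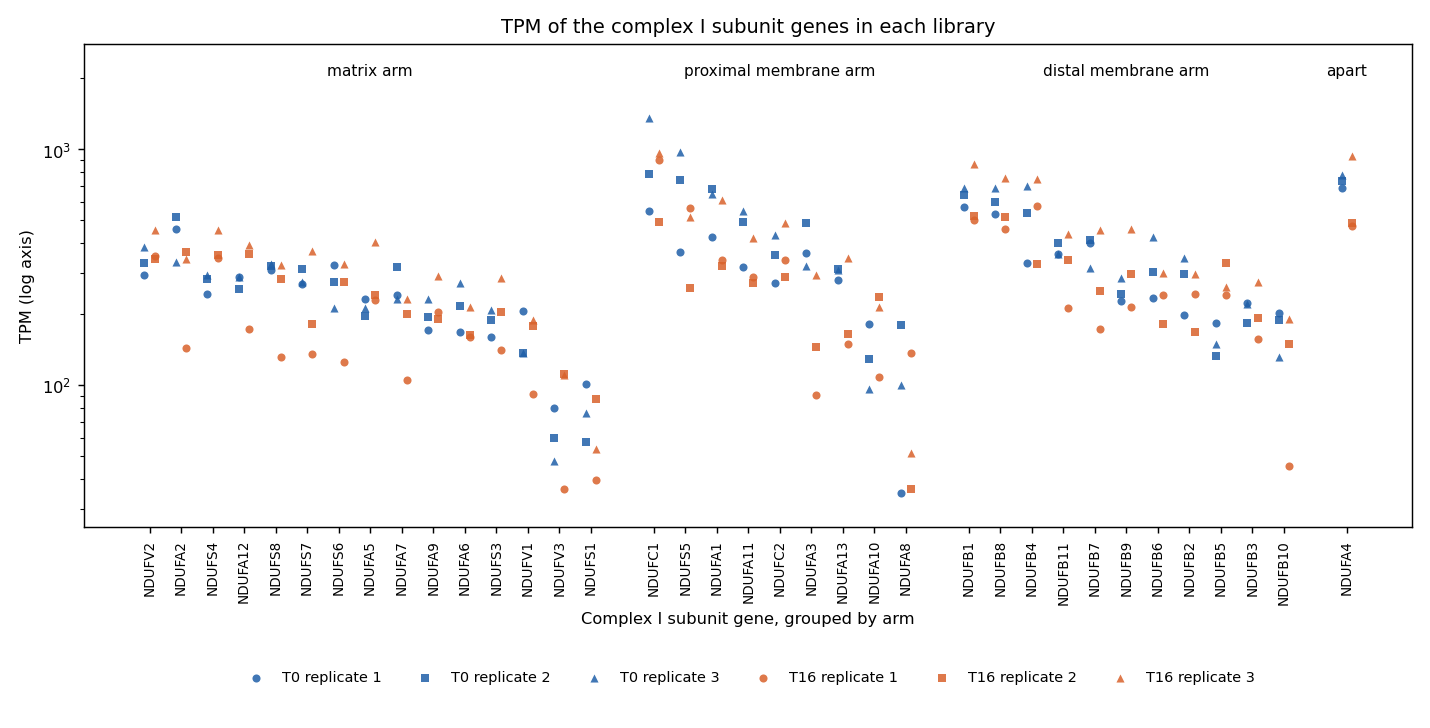
TPM on a log axis (vertical) of 36 of the 37 complex I genes (horizontal, grouped by arm and ordered by mean), with 1 point per library, T0 in blue and T16 in orange, and marker shapes for replicates 1, 2 and 3. NDUFC1, NDUFA4 and NDUFB1 are highest, NDUFS1, NDUFV3 and NDUFA8 are lowest.

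The 7 nuclear core subunits, which carry the redox groups of the matrix arm, were all expressed in every library, from 39.7 TPM (NDUFS1) to 456.5 TPM (NDUFV2). NDUFV1, which binds NADH and the flavin, had 207, 138 and 137 TPM in the T0 replicates and 92.0, 179 and 189 TPM in the T16 replicates. Its partner NDUFV2, an iron-sulfur protein, had 293, 331 and 386 TPM at T0 and 353, 343 and 456.5 TPM at T16. NDUFS1, the largest core subunit and the holder of most clusters of the electron input module, was the scarcest of all members, with 101, 57.3 and 76.1 TPM at T0 and 39.7, 87.4 and 54.0 TPM at T16. NDUFV1 and NDUFS1 were thus lowest in T16 replicate 1, and in these 3 genes the groups overlapped.

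NDUFS7, the holder of the last cluster before ubiquinone, had 268, 311 and 274 TPM at T0 and 135, 181 and 370.0 TPM at T16. T16 replicate 1 was the lowest library, and the T16 values enclosed those of T0.

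NDUFS3 and NDUFS8 also varied less within T0 than within T16. NDUFS3, a scaffold of the ubiquinone module, had 160.0, 189.8 and 209 TPM at T0 and 141, 204 and 285 TPM at T16. NDUFS8, which carries further clusters towards ubiquinone, had the narrowest T0 values of all members, 308, 319 and 326 TPM, against 131, 282 and 323 TPM at T16. The highest T0 library of NDUFS8 was 1.06 times the lowest, and the highest T16 library was 2.45 times the lowest. Over the 37 genes the median of this ratio was 1.51 at T0 and 2.07 at T16, against 1.65 and 1.81 over the 2002 tested genes with a mean of at least 100 TPM.

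NDUFA8 was the most variable member at T0. This intermembrane-space subunit of the proximal arm had 34.8, 181 and 100.4 TPM in the T0 replicates and 137, 36.3 and 51.9 TPM in the T16 replicates. The highest T0 library was 5.19 times the lowest. Its lowest values in each group were in T0 replicate 1 and T16 replicate 2, the libraries lowest in oocyte markers.

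No complex I gene passed the test between T16 and T0. By the quasi-likelihood test of edgeR at an FDR below 0.05, 0 of 37 genes were called, where 0.041% of all tested genes were (5 higher, or 0.0342%, and 1 lower, or 0.00683%), and DESeq2 also called 0 of 37, against 7.02% of all tested genes. At an unadjusted p under 0.05 edgeR had 1 gene, NDUFB5, while 13.8% of all tested genes passed this limit. The median log2 fold change of the members was -0.02, beside -0.08 over all tested genes, and 17 members were above 0 (46.6% of all genes were) and 20 below. The fitted values ran from -0.94 (NDUFA3) to 0.93 (NDUFB5). Among the markers, fitted values were below 0 for 15 of 16 oocyte genes, 9 of 12 granulosa cell genes, 5 of 8 stromal genes and all 5 smooth muscle genes tested. They were above 0 for 3 of 5 endothelial genes and 2 of 3 leukocyte genes tested. Of all marker lists edgeR called 0, and DESeq2 called WNT6, FSHR and the stromal gene DCN, all lower at T16. Their part in the complex I values was not tested.

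These data leave changes of up to 2-fold undecided for most members. The 95% interval of a member's log2 fold change reached 1.01 to each side in the median. It lay within a 2-fold change in either direction for 3 of the 37 genes and within a 4-fold change for 36, the exception being NDUFA3, whose interval ran from -2.33 to 0.45. The median log2 fold change moved from -0.02 to -0.35 without T16 replicate 3, and to 0.18 without both T0 replicate 1 and T16 replicate 2, with 0 members called in either fit.

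**Figure D2:**
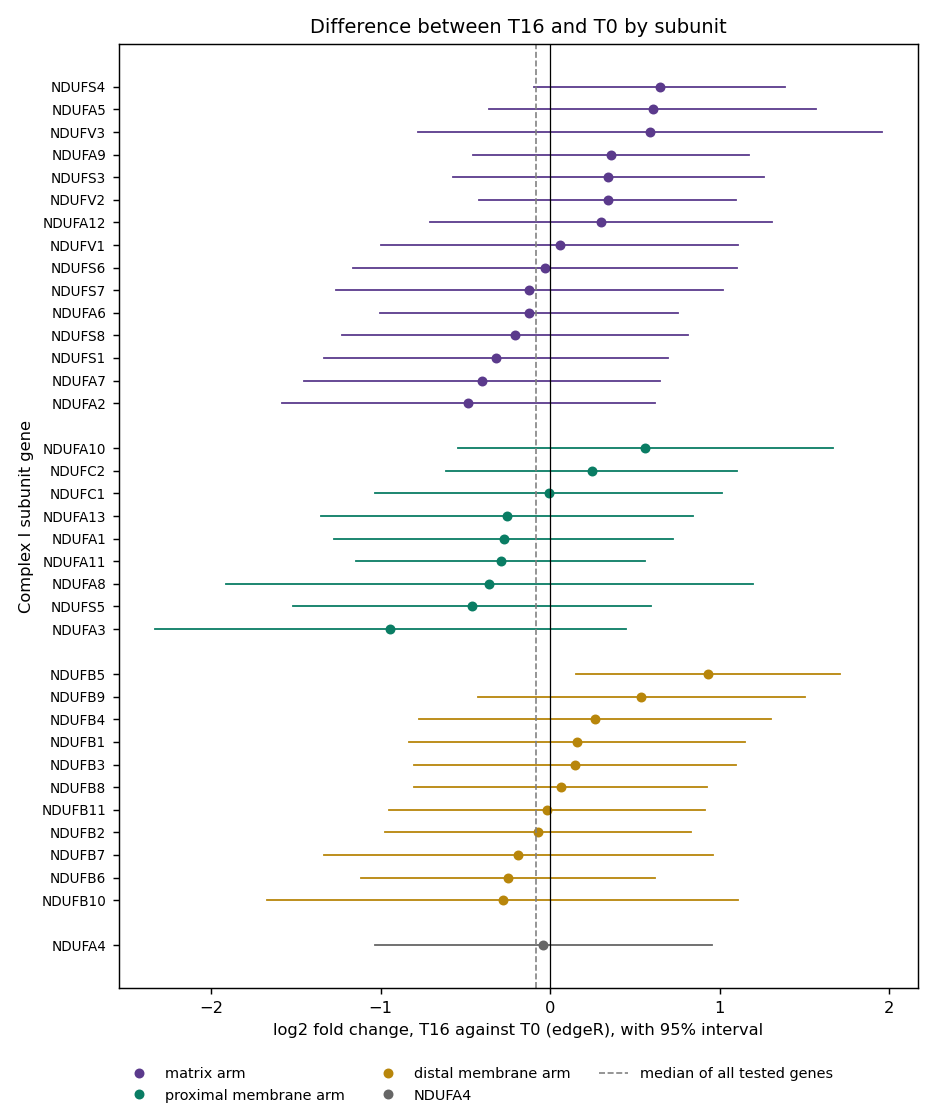
Log2 fold change of T16 against T0 (horizontal) for 36 of the 37 complex I genes (vertical, grouped by arm), as points with 95% intervals from edgeR. The solid line marks 0 and the dashed line the median of all tested genes at -0.08. Every interval shown but that of NDUFB5 includes 0, and NDUFB5 did not pass the FDR.

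NDUFB5 had the largest rise by fitted value. This subunit of the distal membrane arm had 183, 133 and 150.1 TPM in T0 replicates 1, 2 and 3 and 240.4, 330.3 and 262 TPM in T16 replicates 1, 2 and 3. Every T16 library was above every T0 library. The log2 fold change was 0.93 (SE 0.33, n = 3 per group, edgeR adjusted p = 0.27), and the DESeq2 adjusted p was 0.15. Without both T0 replicate 1 and T16 replicate 2 it was 1.09 with an adjusted p of 0.22 by edgeR.

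NDUFS4, an accessory subunit that helps hold the electron input module in place, also had separate groups. It had 243, 283 and 293 TPM at T0 and 345, 356 and 457 TPM at T16. All T16 libraries lay above all T0 libraries. The log2 fold change was 0.65 (SE 0.31, n = 3 per group), with an adjusted p of 0.43 by edgeR, and it was 0.36 without T16 replicate 3.

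NDUFA5, a matrix arm accessory subunit, had the next value, a log2 fold change of 0.60 (adjusted p = 0.60, edgeR), which was 0.13 without T16 replicate 3. Its levels were 232, 197 and 213 TPM at T0 and 231, 242 and 406 TPM at T16. T16 replicate 3 alone stood well above the T0 libraries, and T16 replicate 1 lay among them. NDUFV3, a small accessory subunit of the electron input module, followed with 0.59 (adjusted p = 0.74, edgeR), from 80.5, 59.8 and 47.8 TPM at T0 and 36.2, 112 and 111 TPM at T16. Its groups overlapped, with T16 replicate 1 the lowest of all libraries, and its log2 fold change was 0.22 with T16 replicate 3 left out and 0.93 with T0 replicate 1 left out.

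NDUFA3, a small subunit of the proximal membrane arm, had the largest fitted fall. Its levels were 363, 485 and 321 TPM at T0 and 90.9, 146 and 295 TPM at T16. All T16 libraries were below all T0 libraries in TPM, though not in CPM (counts scaled by library size) after TMM scaling. The log2 fold change was -0.94 (SE 0.59, n = 3 per group, edgeR adjusted p = 0.56), and -1.74 without T16 replicate 3 (adjusted p = 0.30).

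NDUFA2 and NDUFA7, matrix arm accessory subunits, had lower values mainly in T16 replicate 1. NDUFA2 had 460.1, 516 and 333 TPM at T0 and 143, 366 and 343 TPM at T16 (log2 fold change -0.48, edgeR adjusted p = 0.73). NDUFA7 had 241, 317 and 233 TPM at T0 and 105, 200.1 and 232 TPM at T16 (log2 fold change -0.40, edgeR adjusted p = 0.77). Without T16 replicate 1 the log2 fold changes were -0.20 (NDUFA2) and -0.18 (NDUFA7), and without T16 replicate 3 both were -0.79. The groups of NDUFA2 overlapped, and those of NDUFA7 were apart in TPM by the small gap between 232 and 233 TPM and overlapped in scaled CPM.

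NDUFS5, an intermembrane-space subunit of the proximal arm, had 367, 743 and 973 TPM at T0 and 566, 258 and 517 TPM at T16 (log2 fold change -0.46, edgeR adjusted p = 0.74). Its groups overlapped, and the log2 fold change ran from -0.73 without T16 replicate 3 to -0.16 without T16 replicate 2. In all, 4 of 37 members had groups that did not overlap in TPM, 2 higher and 2 lower at T16, where 23.1% of all tested genes did (11.5% higher and 11.6% lower). In scaled CPM these were NDUFB5 and NDUFS4 only, both higher, beside 23.8% of all tested genes (13.2% higher).

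By arm, the fitted differences were small. The 16 matrix arm genes had a median log2 fold change of 0.15 with 9 above 0, the 9 proximal membrane arm genes -0.27 with 2 above 0, and the 11 distal membrane arm genes 0.06 with 6 above 0. In the proximal arm only NDUFA10 and NDUFC2 had fitted values above 0. With the size factors of DESeq2 in edgeR these medians were 0.10, -0.34 and -0.0022, so the sign of the distal arm depends on the scaling. Without both T0 replicate 1 and T16 replicate 2 they were 0.36, -0.18 and 0.18, and without T16 replicate 3 they were -0.18, -0.67 and -0.36. The matrix arm median was also below 0 without T0 replicate 2 (-0.017) and without T0 replicate 3 (-0.015), and the distal arm median without T0 replicate 2 (-0.037), so only the proximal arm stayed on 1 side of 0 with each library left out, from -0.67 to -0.03. No test between the arms was made.

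By summed TPM, libraries of the same group differed more than the groups did. The summed TPM of the 37 genes was 10785, 12689 and 13565 in T0 replicates 1, 2 and 3 (mean 12346, SD 1421, n = 3) and 8972, 9865 and 14621 in T16 replicates 1, 2 and 3 (mean 11153, SD 3037, n = 3). T16 replicate 3 was the highest of the 6 libraries and T16 replicate 1 the lowest. T16 replicate 3 was the highest T16 library for 29 of the 37 genes (18.6% of all tested genes), and T16 replicate 1 was the lowest T16 library for 26 (32.1% of all tested genes). Within T16 the sum of the stromal markers was also highest in replicate 3 (1656 TPM) and lowest in replicate 1 (274 TPM). By gene, 4 of the 8 were highest in T16 replicate 3, while DCN and PDGFRA were lowest there. The part of stromal cells in this order was not tested.

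The balance between the arms differed among libraries. The matrix arm summed to 3846, 3844 and 3690 TPM in T0 replicates 1, 2 and 3, with little spread, and to 2514, 3882 and 4718 TPM in the T16 replicates. The proximal membrane arm summed to 2790, 4171 and 4789 TPM at T0 and to 2924, 2217 and 3914 TPM at T16. The distal membrane arm summed to 3460, 3940 and 4309 TPM at T0 and to 3063, 3278 and 5056 TPM at T16. In T0 replicate 1 and T16 replicate 2 the matrix arm thus exceeded each membrane arm, and in T0 replicates 2 and 3 and T16 replicates 1 and 3 it did not exceed the distal arm.

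Both membrane arms together held 1.63, 2.11 and 2.47 times the TPM of the matrix arm in the T0 replicates and 2.38, 1.42 and 1.901 times in the T16 replicates. The groups overlapped. The 3 libraries with the lowest ratio were T16 replicate 2, T0 replicate 1 and T16 replicate 3, which were also the 3 lowest in summed oocyte markers. Without NDUFC1, NDUFB1 and NDUFB8, the 3 most abundant membrane genes, the ratio was 1.20, 1.58 and 1.72 at T0 and 1.64, 1.02 and 1.35 at T16, with the same 3 libraries lowest. The pattern was seen in the values and not asked of them beforehand, it rests on 6 libraries, and the part of oocyte content in it was not tested.

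The same libraries were lowest for complex I relative to the pooled nuclear genes of complexes II to V. The summed TPM of the 37 genes was 0.566, 0.707 and 0.774 times that of 36 nuclear genes of complexes II to V in the T0 replicates and 0.701, 0.585 and 0.584 times in the T16 replicates. NDUFA4 is counted with complex I in these sums. The mean ratio was 0.682 at T0 (SD 0.106, n = 3) and 0.623 at T16 (SD 0.0673, n = 3), and the groups overlapped. Oocyte markers summed to 615, 99.2 and 899.9 TPM in the 3 libraries with the lowest ratios and to 2324 TPM or more in the others. The order was not seen against complex IV alone. Its 9 genes summed to 5551, 6895 and 6958 TPM in the T0 replicates and to 4390, 4500 and 8241 TPM in the T16 replicates. Against complex IV, complex I was thus relatively highest in T16 replicate 2.

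**Figure D3:**
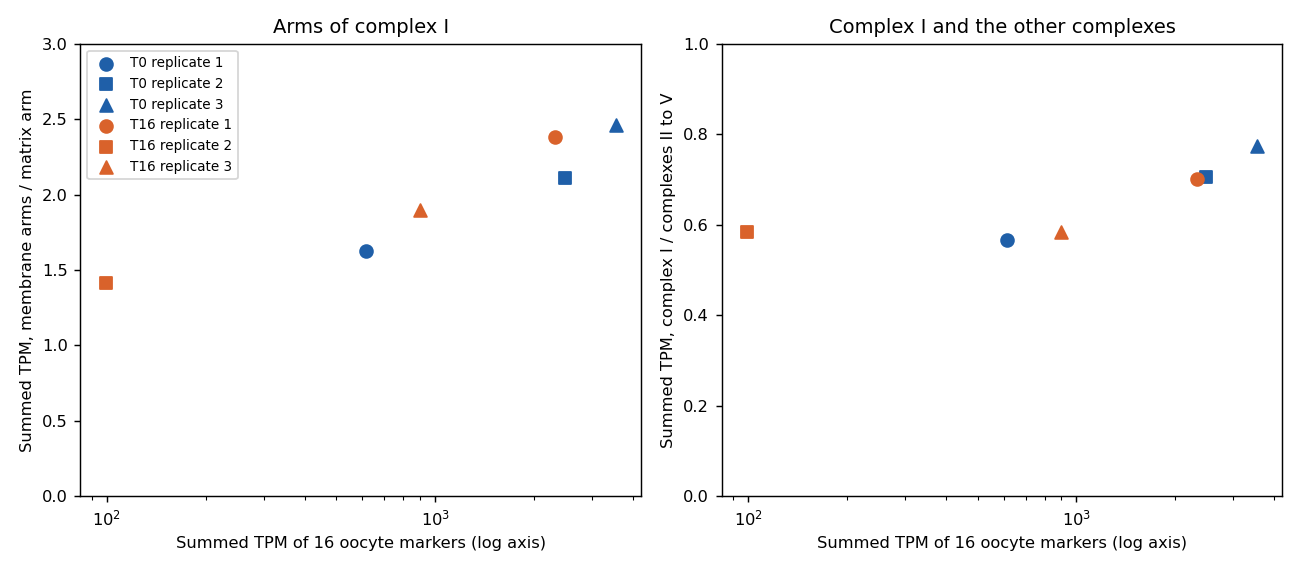
Ratio of summed TPM (vertical) against the summed TPM of 16 oocyte markers (horizontal, log axis), with 1 point per library, T0 in blue and T16 in orange. The left panel has both membrane arms over the matrix arm, from 1.42 to 2.47, and the right panel complex I over complexes II to V, from 0.566 to 0.774, with the 3 libraries on the left of each panel lowest.

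Gene by gene, 11 of the 37 members were lowest of their group in both T0 replicate 1 and T16 replicate 2, against 21.9% of all tested genes and 15 of 16 oocyte markers. By arm these were 6 of 9 proximal genes (NDUFA1, NDUFA8, NDUFA11, NDUFC1, NDUFC2 and NDUFS5), 3 of 11 distal genes (NDUFB2, NDUFB4 and NDUFB6) and 2 of 16 matrix arm genes (NDUFA9 and NDUFV2). The opposite order, highest of the group in both libraries, held for 5 members, among them NDUFS1 and NDUFB5, against 19.4% of all tested genes. NDUFAB1, the mitochondrial acyl carrier protein that also sits in complex I but falls outside the naming rule, had 543, 1337 and 1860 TPM at T0 and 1057, 362 and 701 TPM at T16. It too was lowest in T0 replicate 1 and T16 replicate 2, and its log2 fold change was -0.65 (edgeR adjusted p = 0.67).

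The other respiratory complexes likewise had no called gene at T16. Of 4 genes of complex II, 8 of complex III, 9 of complex IV and 15 of ATP synthase, edgeR and DESeq2 called 0 (0.041% and 7.02% of all tested genes), and 0 had an unadjusted p under 0.05 by edgeR (13.8% of all tested genes). Their median log2 fold changes were 0.02, 0.26, 0.07 and 0.28 in that order, and -0.29, -0.24, -0.55 and -0.21 without T16 replicate 3, when 8 of the 36 genes were above 0 instead of 25. The median of complex II was also below 0 in the fits without T0 replicate 2, T0 replicate 3 or T16 replicate 2 (-0.12, -0.14 and -0.08), and that of complex IV in those without T0 replicate 1 or T0 replicate 3 (-0.0075 and -0.022). The largest fitted value among them was that of UQCRFS1, the iron-sulfur protein of complex III, with 442, 241 and 185 TPM at T0 and 293, 642 and 699 TPM at T16 (log2 fold change 1.01, edgeR adjusted p = 0.50), where the groups overlapped. T16 replicate 3 was the highest T16 library for 32 of these 36 genes, as it was for most of complex I.

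**Figure D4:**
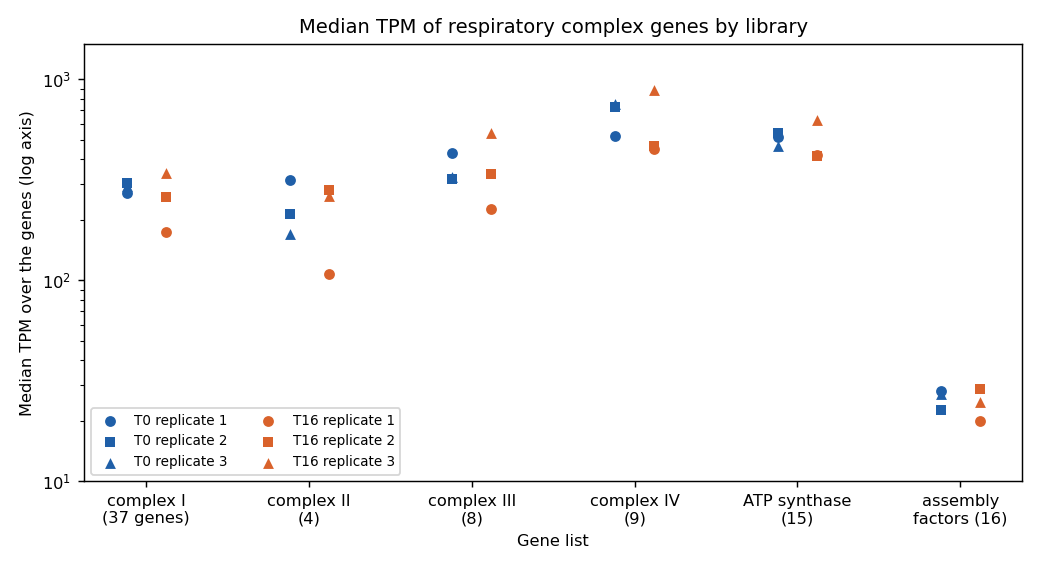
Median TPM over the genes of each list (vertical, log axis) for complexes I to IV, ATP synthase and complex I assembly factors (horizontal), with 1 point per library, T0 in blue and T16 in orange. The groups overlap in every list, the complex I medians run from 174 to 343 TPM, and those of the assembly factors from 20.1 to 28.7 TPM.

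The 16 assembly factors, proteins that help build complex I without staying in it, were much scarcer than the subunits, with a median level of 25.4 TPM. None was called by edgeR or DESeq2 (0.041% and 7.02% of all tested genes), and 1 had an unadjusted p under 0.05 by edgeR (13.8% of all tested genes). Their median log2 fold change was 0.20, but -0.13 without T16 replicate 3 and -0.05 without T0 replicate 2. That gene was NDUFAF6, needed for the early membrane steps, with 10.6, 11.3 and 8.39 TPM at T0 and 19.5, 26.4 and 15.6 TPM at T16. All T16 libraries were above all T0 libraries, and the log2 fold change was 1.10 (SE 0.42, edgeR adjusted p = 0.30). COA1 had 63.5, 149 and 168 TPM at T0 and 72.9, 40.5 and 60.4 TPM at T16 (log2 fold change -0.97, edgeR adjusted p = 0.40), with overlapping groups.

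Among the regulators of mitochondrial gene expression several had higher values in the T16 libraries, although edgeR called 0 of 14 at an FDR below 0.05. At an unadjusted p under 0.05 it had 5 of 14, all with higher values at T16, and DESeq2 called 2 of 14, beside the 13.8% and 7.02% of all tested genes given above. Leaving out T16 replicate 1, or T0 replicate 2, lowered the count of 5 to 3. TFB2M, a transcription factor of mitochondrial DNA, had 27.8, 25.1 and 27.8 TPM at T0 and 98.5, 60.0 and 58.0 TPM at T16. All T16 libraries were above all T0 libraries, and the log2 fold change was 1.51 (SE 0.33, edgeR adjusted p = 0.12, DESeq2 adjusted p = 0.0046).

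PPRC1, a coactivator of the PGC-1 family, had 21.8, 12.3 and 11.1 TPM at T0 and 74.6, 53.4 and 30.6 TPM at T16, again without overlap. Its log2 fold change was 1.83 (SE 0.45, edgeR adjusted p = 0.14, DESeq2 adjusted p = 0.0079). The other three genes are named after their values were seen. They were GABPB1, a subunit of the nuclear respiratory factor GABP (log2 fold change 1.48, edgeR adjusted p = 0.18), TFAM, the factor that packages and transcribes mitochondrial DNA (1.20, adjusted p = 0.21), and NRF1, a nuclear factor at many complex I promoters (1.09, adjusted p = 0.27). TFB2M, PPRC1, GABPB1, TFAM and NRF1 were all highest in T16 replicate 1, the library with the lowest summed complex I TPM. Whether the regulators differed from the complex I genes in their response was not tested.

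**Figure D5:**
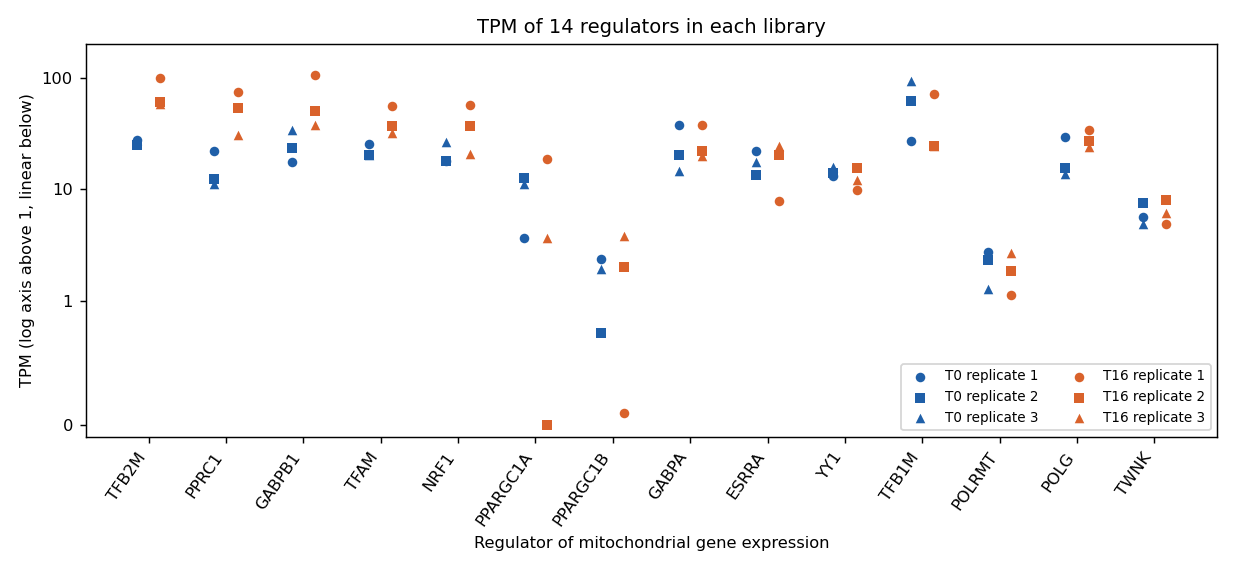
TPM (vertical, log axis above 1 and linear below) of 14 regulators of mitochondrial gene expression (horizontal), with 1 point per library, T0 in blue and T16 in orange. TFB2M, PPRC1, GABPB1 and TFAM have every T16 library above every T0 library, NRF1 overlaps, and PPARGC1A is at 0 in T16 replicate 2.

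Most members rest on a single transcript model. Of the 37 genes, 27 had 1 matched RefSeq transcript and 10 had more. The main transcript held 85.6% of the mean TPM of NDUFS1 and 97.6% of that of NDUFS4. NDUFB8, a distal arm subunit, was divided between a model of 705 bases and a model of 610 bases. The 705-base model had 190.2, 429 and 118 TPM at T0 and 66.3, 101 and 254 TPM at T16, and the 610-base model 340.4, 171 and 571 TPM at T0 and 395, 416 and 506 TPM at T16. The longer model led only in T0 replicate 2, while the sum of both stayed between 461 and 760.0 TPM. NDUFV1 had 79.95% of its mean TPM in a model of 1535 bases and the rest in a model of 1775 bases, and the longer model was the minor form in every library.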

How the data were processed

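RNA of 6 pools of PMF was measured by RNA-seq, 3 at T0 and 3 at T16. After trimming with Trim Galore, the authors quantified the reads with Salmon on the bovine transcriptome (ARS-UCD1.3) and deposited estimated counts and TPM per RefSeq transcript. Of the other deposited values, the effective lengths of transcripts served as offsets in an alternative fit, and the transcript lengths are quoted to describe transcript models. Gene symbols were then looked up by transcript accession in RefSeq genes of ARS-UCD2.0, without coordinates. Of 76123 transcripts, 50205 (66.0%) matched, and unmatched ones took 9.74% to 10.9% of each library's counts. Gene names that did not match, among them UQCRC2 and COX5A, and the mitochondrially encoded subunits were not analysed here.

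Counts were summed to genes and rounded, TPM were summed, and the groups were tested against each other with edgeR 4.0.16 in R 4.3.3 (TMM, quasi-likelihood test, Benjamini-Hochberg over 14639 genes holding 10 or more counts in 3 or more libraries, FDR below 0.05), with DESeq2 1.42.0 as the alternative. Standard errors and 95% intervals came from the quasi-likelihood fit. The procedure was also run on simulated data, with results that are not reported here. TPM were described without a test.

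The members, the gene lists and the tests were chosen with earlier results of these data known. TPM per library is given for the core subunits, the 3 highest and 3 lowest members, those whose groups do not overlap and the 3 with the largest rise and fall. Of other lists the genes past the FDR, or else those with the 2 smallest p-values, could be named. Results for 1 gene are not reported here.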

Additional observations from a re-analysis of the deposited data

How the results depend on the processing

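No member of complex I was called under any of the alternatives run, and the lowest adjusted p of a member was 0.15 (DESeq2, NDUFB5). The median log2 fold change of the members was lowest at -0.35 when T16 replicate 3 was left out and highest at 0.18 with T0 replicate 1 and T16 replicate 2 left out together (an alternative chosen after seeing the data), and the difference in summed TPM (T16 minus T0) ran from -2928 to -103 when 1 library was left out. On the log2(TPM + 1) scale the median of the members was -0.23 and that of all tested genes -0.19, a shift of all genes by over 0.1 against TMM. Without T16 replicate 3, 4 members had an unadjusted p under 0.05 (NDUFA1, NDUFA3, NDUFA13 and NDUFS7, all with lower values at T16), beside 11.6% of all genes tested there.

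Over all genes, edgeR called 5 higher and 1 lower. The replicate block, with the replicate number as a factor, left 0 and 0, DESeq2 gave 594 and 433, and the fit without T0 replicate 1 and T16 replicate 2 gave 0 and 0. Without a filter on low counts 4 were lower, and with at least 50 counts in 3 libraries 2 were. Leaving out each library in turn gave 0 to 2 higher and 0 to 1 lower. The causes were not tested. Same-numbered libraries did not deviate together (correlations of -0.42, -0.11 and 0.0011 for numbers 1, 2 and 3). Libraries of the same group also differed in cell type markers, so these correlations cannot show whether the numbers pair the pools. T0 replicate 1 correlated best with T16 replicate 2 (0.41).

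Of the 18 members given with the TPM of every library, 9 changed sign under at least 1 alternative, none with a call. With 1 library left out in turn their log2 fold changes ran from -0.62 to 0.17 (NDUFA4), -1.12 to 0.12 (NDUFA8), -0.34 to 0.34 (NDUFB1), -0.35 to 0.30 (NDUFC1), -0.62 to 0.0182 (NDUFS1), -0.10 to 0.51 (NDUFS3), -0.84 to 0.10 (NDUFS7), -0.62 to 0.0434 (NDUFS8) and -0.27 to 0.40 (NDUFV1). Without T0 replicate 1 and T16 replicate 2, NDUFA4 had 0.21, NDUFC1 0.0686 and NDUFS7 0.12. NDUFV1 had -0.0013 without a filter, -0.0202 with the stricter filter and -0.0006 with transcript length offsets. Promoter motifs were not analysed here. The members had at least 239 counts in every library, and with 3 pools per group the median interval reached 1.01 to each side on the log2 scale.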
